A study of Mus musculus with 6 samples.

Results

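The dynein light chains are small subunits of the dynein motors, and 8 of their genes were followed in mouse macrophages grown from the bone marrow of Cd28 KO and WT mice. The genes were Dynlt1a, Dynlt1b, Dynlt1c and Dynlt1f, which are near-identical copies, and Dynlt3, Dynll1, Dynll2 and Dynlrb1. They were taken by Entrez number from the 14574 genes listed in any of the 6 RNA-seq libraries, and all 8 were listed in every library. The set was drawn up with earlier results of the same Cd28 KO against WT comparison known, in which Dynlt1b and Dynlt1c stood out. Values of these 8 genes in that comparison are therefore given as a description, without a test. Tests are kept for the other genes of dynein transport and for the chromosomal neighbours of the Dynlt1 copies.

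The macrophages had been grown for 7 days from femur marrow of mice 6 to 10 weeks old, in 10% serum and with 25 ng/ml of human M-CSF given every 2 days. M-CSF is the growth factor that drives marrow precursors to macrophages, and both groups received it with no further treatment. The Cd28 KO group carried the knockout of Cd28, a receptor best known from T cells, and the WT group was C57BL/6J, with 3 libraries in each. The knockout allele, the sex of the mice and the origin of the replicates from separate animals were not given in the sources used here. Replicate spread, and any p-value resting on it, may therefore be technical.

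Cytoplasmic dynein walks along microtubules towards their minus ends, which in most cells means inward, towards the nucleus. Its heavy chain is the motor, and its intermediate chains carry dimers of light chains from the Tctex, LC8 and roadblock families. Dynlt1 and Dynlt3 encode Tctex light chains, Dynll1 and Dynll2 the LC8 light chains, and Dynlrb1 a roadblock light chain. In macrophages, dynein is known for drawing phagosomes, endosomes and lysosomes to the cell centre, where phagosomes mature. LC8 proteins also bind many partners outside the motor.

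The 4 Dynlt1 copies lie within 349622 bases of chromosome 17 (GRCm38). They are Dynlt1a (Entrez 100310872, 6306344 to 6317520), Dynlt1b (21648, 6429530 to 6440500), Dynlt1c (100040563, 6601779 to 6607891) and Dynlt1f (100040531, 6646606 to 6655965). Their coding sequences, 339 bases each without the stop codon in GENCODE M21, differed at 1 position. At coding position 21, counted from the A of the start codon, Dynlt1b differs from the other copies as C21A. The change is in the last base of codon 7, and the standard genetic code gives the same protein for all 4 copies. The first 60 coding bases are shown because they hold the only coding base, in capitals, by which a read could tell Dynlt1b from the rest. In each copy they span 2 exons and the intron between them, at chr17:6314926-6317400 on the minus strand, chr17:6430212-6431912 and chr17:6601810-6603519 on the plus strand, and chr17:6653320-6655800 on the minus strand.
Dynlt1a: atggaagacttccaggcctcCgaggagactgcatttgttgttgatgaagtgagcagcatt
Dynlt1b: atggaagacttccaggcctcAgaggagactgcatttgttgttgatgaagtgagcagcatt
Dynlt1c: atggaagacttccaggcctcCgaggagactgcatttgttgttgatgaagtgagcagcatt
Dynlt1f: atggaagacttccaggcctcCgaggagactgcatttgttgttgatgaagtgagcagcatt

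Over whole transcripts the copies were hard to tell apart as well. Of all stretches of 50 bases in the main coding transcript, 59.4% in Dynlt1a, 83.2% in Dynlt1b, 93.7% in Dynlt1c and 93.1% in Dynlt1f also occurred in a transcript of another gene. The stretches found in no other gene numbered 1330 in Dynlt1a, 121 in Dynlt1b, 159 in Dynlt1c and 50 in Dynlt1f. The genes sharing stretches included the other copies and the pseudogene Dynlt1-ps1. By contrast, 0 stretches of Dynlt3, Dynll2 or Dynlrb1 and 3.03% of those of Dynll1 recurred elsewhere. The deposited values come from RSEM, which divides shared reads among copies by estimation, so the value of any 1 copy is uncertain. The sum over the 4 is therefore given beside the single copies. Values are scaled by transcript length, so the sum depends on this division too. The main coding transcripts are 3321, 771, 2589 and 771 bases long in Dynlt1a, Dynlt1b, Dynlt1c and Dynlt1f. Whether the sum is steadier than a single copy was not tested. It may also share reads with other genes. Stretches also found outside the 4 copies numbered 327 of 3272 in Dynlt1a, 272 of 722 in Dynlt1b, 320 of 2540 in Dynlt1c and 293 of 722 in Dynlt1f. The read length and the transcript set behind the files were not given in the sources used here. More distant were the other light chains. The coding sequence of Dynlt3 aligned to that of Dynlt1c at 62.5% of positions, and Dynll1 to Dynll2 at 81.3%.

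Promoter windows (250 bases before to 50 after a RefSeq start, GRCm38.p6) were at hand for 5 of the 8 members. The windows of Dynlt1c and Dynlt1f are shown because one of these copies was higher in Cd28 KO and the other was not, as described further on. Dynlt1c lies at chr17:6601529-6601828 on the plus strand and Dynlt1f at chr17:6655890-6656189 on the minus strand. The windows share a stretch of 192 bases at 98.4% identity with 0 gaps. The 3 differing bases, in capitals, are A26C, C52T and C90G, with the Dynlt1c base first and positions counted from the 5′ end of its window.
Dynlt1c: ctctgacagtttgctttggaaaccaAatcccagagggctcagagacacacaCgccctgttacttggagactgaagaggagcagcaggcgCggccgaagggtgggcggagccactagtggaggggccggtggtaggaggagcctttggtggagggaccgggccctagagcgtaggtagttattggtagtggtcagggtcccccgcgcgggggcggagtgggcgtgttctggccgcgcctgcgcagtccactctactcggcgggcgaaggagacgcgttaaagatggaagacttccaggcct
Dynlt1f: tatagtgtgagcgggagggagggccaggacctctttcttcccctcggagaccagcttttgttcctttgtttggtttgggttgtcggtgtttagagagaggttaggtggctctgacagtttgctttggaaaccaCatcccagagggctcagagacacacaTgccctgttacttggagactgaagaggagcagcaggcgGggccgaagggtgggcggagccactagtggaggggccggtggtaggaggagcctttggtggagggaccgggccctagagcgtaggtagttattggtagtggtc
Searched on both strands, the GC box letters GGGCGG occurred 2 times in the Dynlt1c window and 1 time in that of Dynlt1f, and in 35.9% of 32544 distinct windows of the table. The shared stretch of 192 bases holds 1 of these matches in each copy. The other Dynlt1c match lies past that stretch, in bases that the Dynlt1f window does not reach. The 2 counts therefore do not show a difference in GC boxes between the copies. The letters CCAAT occurred 1 time in each, and in 37.4% of all windows. TATAAA occurred 0 times in both, and in 13.6% of all windows. No match of one motif overlapped a match of another in these windows, and a match describes the sequence only.

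The libraries listed 12768 to 13327 genes each, with a number of reads not given in the sources used here. Values are FPKM, which scales fragments by transcript length and by library size, so levels of different genes are set per length. Cd28 itself was still listed in Cd28 KO, at 25.7, 24.2 and 26.9 FPKM, against 38.2, 30.1 and 51.1 FPKM in WT. All 7 macrophage markers examined were above 1 FPKM on average, led by Lyz2. The summed level of the other marker lists stayed at or below 8.27 FPKM in any library, and Cd3d, Dnah5 and Dnah9 were listed at 0 throughout. Replicate 3 lay away from replicates 1 and 2 in both genotypes on principal component 1, which held 73.8% of the variance. The light chains are therefore also compared within replicate numbers. As in any bulk sample, fewer cells with a transcript and less of it per cell cannot be told apart.

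The Dynlt1 copies summed to a higher level in Cd28 KO macrophages than in WT. The sum was 228, 193 and 257 FPKM in Cd28 KO replicates 1 to 3 and 137, 116 and 148 FPKM in the WT replicates. Every Cd28 KO library lay above every WT library. The group means were 226 ± 31.9 FPKM and 134 ± 15.9 FPKM (SD, n = 3 each), a ratio of 1.69 and a log2(FPKM + 1) difference of 0.75 ± 0.14 (SE). Within replicate numbers the ratio of Cd28 KO to WT was 1.66, 1.66 and 1.74, so the replicate 3 pair, which lay away from the rest, gave a ratio close to the others.

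**Figure D1:**
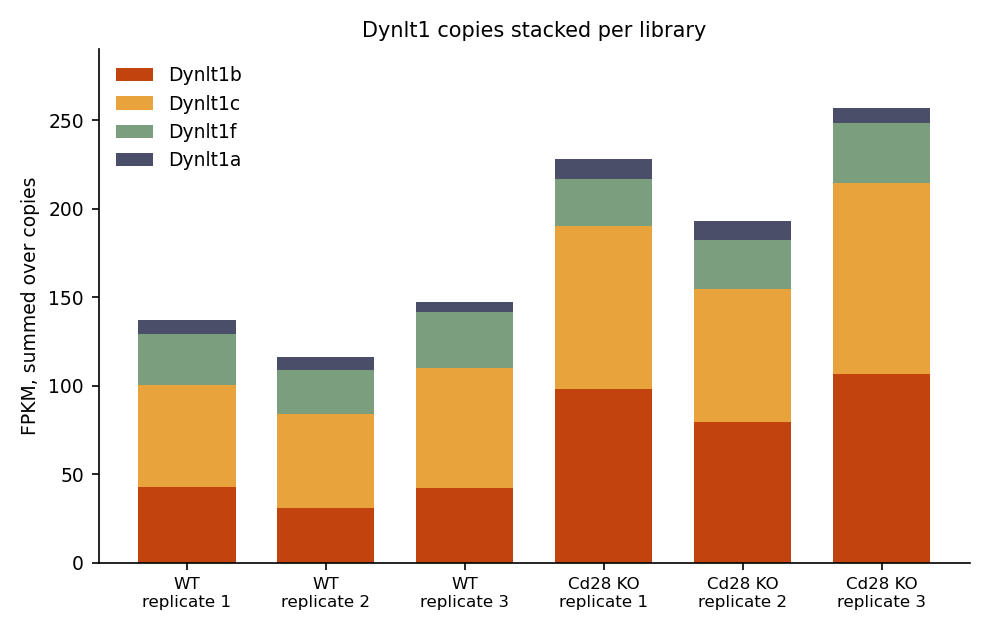
FPKM of the 4 Dynlt1 copies stacked for each of the 6 libraries, 3 WT on the left and 3 Cd28 KO on the right. The bars of Cd28 KO reach 193 to 257 FPKM and those of WT 116 to 148 FPKM, and most of the added height is in Dynlt1b and Dynlt1c.

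Dynlt1b differed by the largest ratio among the 8 light chains. It stood at 98.1, 79.2 and 106 FPKM in Cd28 KO and at 42.7, 31.1 and 42.1 FPKM in WT. The lowest Cd28 KO library was far above the highest WT library. The means were 94.6 ± 13.9 against 38.6 ± 6.50 FPKM (SD, n = 3 each), 2.45 times as high, with a log2 difference of 1.27 ± 0.17 (SE). Only 6 of the 10172 tested genes had a larger log2 difference, which describes a gene chosen for this difference and supports nothing further.

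Dynlt1c was also higher, by a smaller ratio. It stood at 92.0, 75.1 and 108 FPKM in Cd28 KO against 57.8, 52.6 and 67.7 FPKM in WT. The groups did not overlap, though the lowest Cd28 KO library was close to the highest WT library. The means were 91.7 ± 16.4 and 59.4 ± 7.68 FPKM (SD, n = 3 each), a ratio of 1.54 and a log2 difference of 0.61 ± 0.16 (SE).

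Dynlt1a, the lowest of the copies, moved in the same direction at a small scale. It stood at 11.2, 11.1 and 8.31 FPKM in Cd28 KO against 7.92, 7.35 and 6.16 FPKM in WT. The Cd28 KO replicate 3 value was close to the highest WT value, and both groups had their lowest value in replicate 3. The log2 difference was 0.45 ± 0.17 (SE) and the ratio 1.43.

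Dynlt1f did not follow the other copies. Its values were 26.8, 27.7 and 34.1 FPKM in Cd28 KO and 28.6, 25.2 and 31.6 FPKM in WT. The groups overlapped across most of their range, with means of 29.5 ± 3.95 and 28.5 ± 3.17 FPKM (SD, n = 3 each) and a log2 difference of 0.05 ± 0.14 (SE). This sign flipped to -0.01 when the libraries were rescaled to TPM. Within replicate numbers the ratio of Cd28 KO to WT was 0.937 for Dynlt1f in replicate 1 and above 1 in the other pairs. It lay between 2.30 and 2.54 for Dynlt1b, between 1.43 and 1.59 for Dynlt1c and was at least 1.35 for Dynlt1a. These 3 copies were higher in every pair, as any pairing must give where the groups do not overlap.

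**Figure D2:**
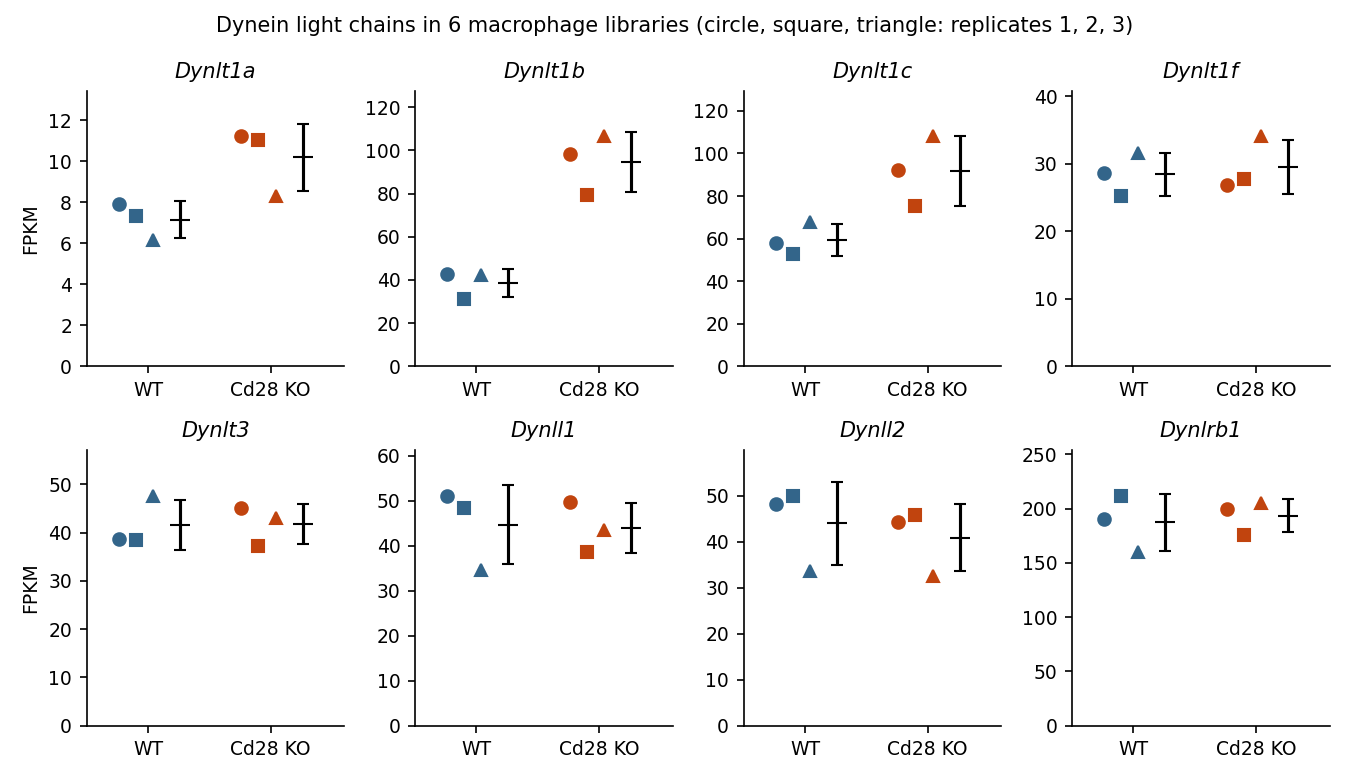
FPKM of each light chain gene in the 6 libraries, with WT in blue, Cd28 KO in orange, marker shapes for replicates 1 to 3, and black bars for mean ± SD (n = 3). Dynlt1a, Dynlt1b and Dynlt1c separate by genotype, while Dynlt1f, Dynlt3, Dynll1, Dynll2 and Dynlrb1 overlap. Each panel has its own scale from 0.

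The copies thus took different shares of the sum in each genotype. Dynlt1b made up 43.0%, 41.0% and 41.4% of the sum in Cd28 KO and 31.2%, 26.8% and 28.5% in WT. Dynlt1f made up 11.8%, 14.3% and 13.3% in Cd28 KO and 20.9%, 21.7% and 21.4% in WT. Both shares were separate between the groups, Dynlt1b higher and Dynlt1f lower in Cd28 KO. Dynlt1c held 40.4% ± 1.58 in Cd28 KO and 44.4% ± 1.98 in WT, and Dynlt1a 4.62% ± 1.27 and 5.42% ± 1.11 (SD, n = 3 each). The Dynlt1c share was also lower without overlap, though narrowly, with 42.05% in Cd28 KO replicate 3 and 42.19% in WT replicate 1. The Dynlt1a shares overlapped. The ratio of Dynlt1b to Dynlt1f ranged from 2.86 to 3.66 in Cd28 KO and from 1.23 to 1.49 in WT. Shares rest on the division of reads among copies and carry its uncertainty, which was not tested.

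Dynlt3, the other Tctex light chain of the set, was at the same level in both groups within its spread. It lies on chromosome X (Entrez 67117, 9654270 to 9662983). Its values were 45.1, 37.1 and 43.1 FPKM in Cd28 KO and 38.7, 38.5 and 47.7 FPKM in WT. The log2 difference was 0.01 ± 0.13 (SE), and it was -0.05 on the TPM scale and -0.01 with quantile normalization. The ratios within replicate numbers were 1.17, 0.965 and 0.904, on both sides of 1.

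The LC8 light chains overlapped between the groups as well. Dynll1 (Entrez 56455, chromosome 5, 115297110 to 115300990) stood at 49.7, 38.5 and 43.5 FPKM in Cd28 KO and 51.1, 48.3 and 34.6 FPKM in WT. The replicate pairs disagreed in direction, with ratios of 0.973, 0.797 and 1.26. Dynll2 (Entrez 68097, chromosome 11, 87979525 to 88003817) stood at 44.2, 45.8 and 32.5 FPKM in Cd28 KO and 48.2, 50.0 and 33.7 FPKM in WT. Its ratio was below 1 in all 3 pairs, at 0.916, 0.916 and 0.966, and its log2 difference was -0.10 ± 0.20 (SE). That of Dynll1 was -0.01 ± 0.17 (SE). In Dynll2 the replicate 3 libraries were the lowest of each group, with log2 differences from the mean of replicates 1 and 2 of -0.46 in Cd28 KO and -0.53 in WT. A log2 difference of at least 0.4 in a shared direction in both groups was seen in 19.4% of the tested genes.

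Dynlrb1, the roadblock chain, was the most abundant single gene of the set in both genotypes. The Dynlt1 sum was above Dynlrb1 within each Cd28 KO library and below it within each WT library. Dynlrb1 lies on chromosome 2 (Entrez 67068, 155236533 to 155250277). Its values were 199.6, 176 and 205 FPKM in Cd28 KO and 190.5, 212 and 159.9 FPKM in WT. The ratios within replicate numbers, 1.05, 0.831 and 1.28, lay on both sides of 1, and the log2 difference was 0.05 ± 0.13 (SE). It was -0.01 on the TPM scale and -0.00023 with quantile normalization. The 4 light chains outside Dynlt1 together summed to 320.1 ± 20.9 FPKM in Cd28 KO and 318 ± 37.6 FPKM in WT (SD, n = 3 each).

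**Figure D3:**
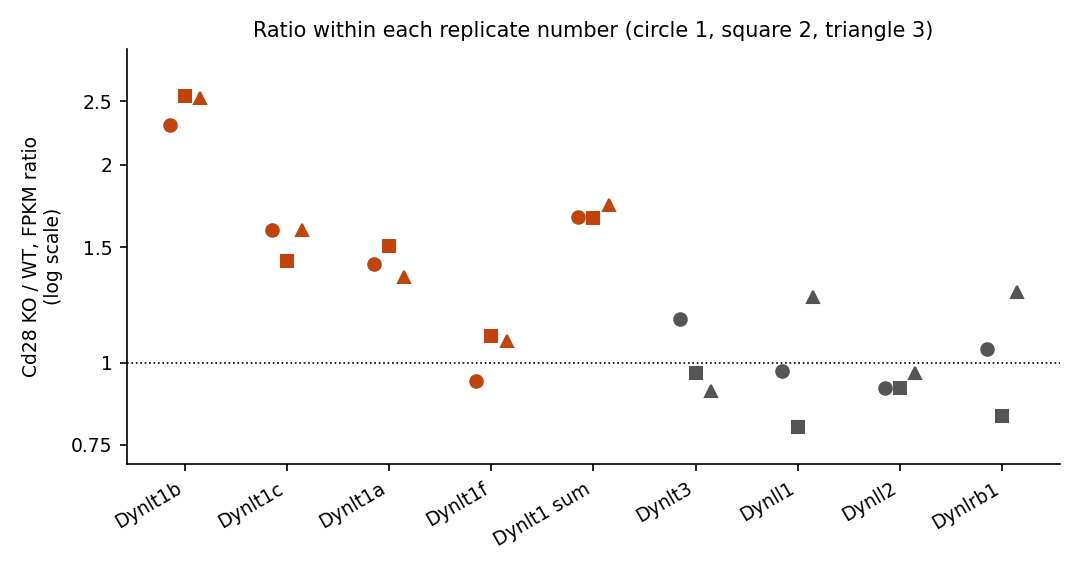
Ratio of Cd28 KO to WT FPKM within each replicate number, on a log axis, for the 4 Dynlt1 copies and their sum (orange) and the other light chains (grey). The Dynlt1 sum lies at 1.66 to 1.74, Dynlt1b at 2.30 to 2.54, and the light chains outside Dynlt1 between 0.797 and 1.28.

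The order of levels within a genotype shows how this changed the make-up of the light chain transcripts. In WT, Dynlrb1 was highest at 187 ± 26.1 FPKM, followed by Dynlt1c at 59.4 ± 7.68 FPKM, and each was above the next gene in every library. Dynll1, Dynll2, Dynlt3 and Dynlt1b followed at 44.7 to 38.6 FPKM, with neighbours that overlapped. Dynlt1f overlapped Dynlt1b, and Dynlt1a was lowest and apart. In Cd28 KO, Dynlt1b and Dynlt1c came next after Dynlrb1 and overlapped each other, and both were above Dynll1 in every library. The Dynlt1 sum made up 41.3% ± 2.56 of the FPKM of all 8 light chains in Cd28 KO and 29.8% ± 4.92 in WT (n = 3 each, ± SD).

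As a count, for 3 of the 8 members all Cd28 KO libraries lay above all WT libraries, as for 3.84% of the 10172 tested genes. For 0 of the 8 they all lay below, as for 2.87% of tested genes, and the share separated in either direction was 6.71%. The log2 difference was positive in 6 of the 8 members and in 49.1% of tested genes. The members were chosen from this contrast, so these counts are not evidence about it.

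The other genes of dynein transport were not used in choosing the members, and limma over all genes called 0 of the 61 tested at a Benjamini-Hochberg adjusted p below 0.05. Over all tested genes it called 0.0197%. With the replicate number as a block it called 0 of the 61 too, and 0.177% of all tested genes. At such shares 0 is the likely count for any list of this size, so it does not show that these genes were unchanged. The lists were also drawn up with earlier results of these data known. The smallest adjusted p was 0.9995 without the block and 0.55 with it. Without adjustment, 1 of the 61 had a limma p below 0.05, and 3 did with the block, where 2.49% and 7.89% of all tested genes did. The lists held 95 genes, of which 85 were listed in any library and 61 had a mean of at least 1 FPKM. Their median log2 difference was -0.04, with 25 positive and 36 negative, against -0.00315 for all tested genes. The 61 ranged from -0.33 to 0.34, and 0 were higher and 4 lower without overlap between the groups, where 3.84% and 2.87% of all tested genes were.

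**Figure D4:**
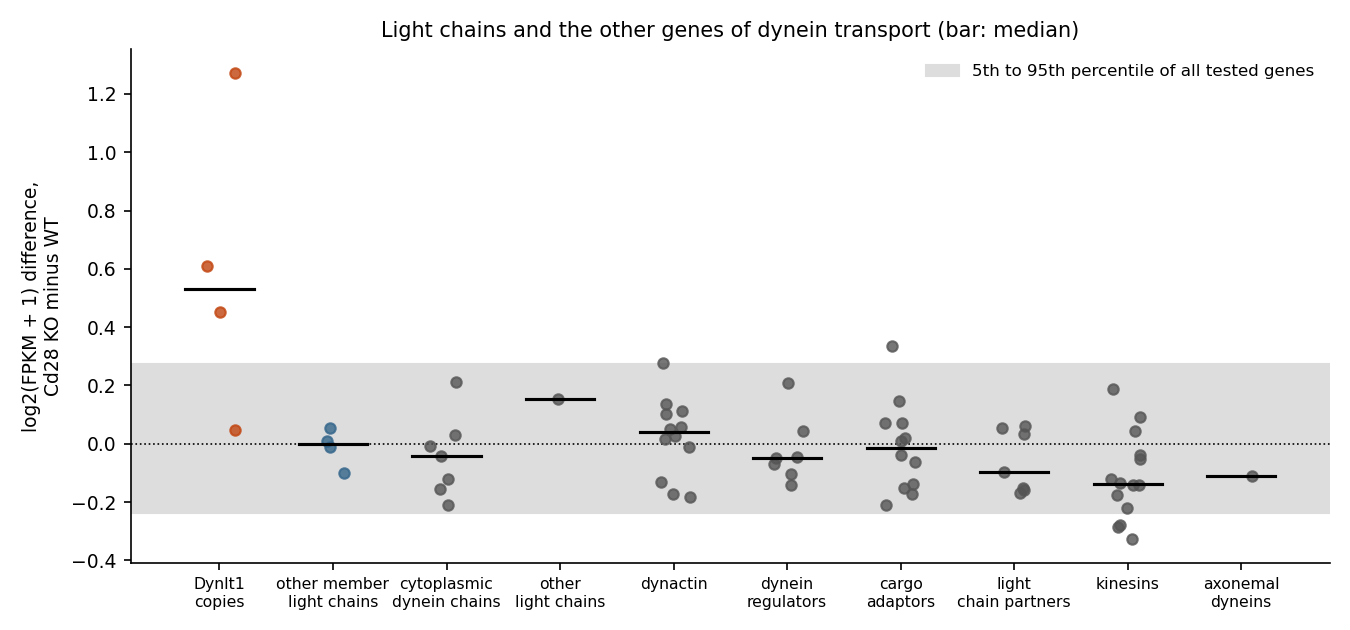
Log2(FPKM + 1) difference, Cd28 KO minus WT, of each tested gene, for the Dynlt1 copies, the other member light chains and the role lists of dynein transport, with black bars at the medians. The grey band holds the 5th to 95th percentile of all tested genes, from -0.24 to 0.27, and 3 of the 4 Dynlt1 copies lie above it.

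The tested motor chains other than light chains overlapped between the groups. Dync1i2, the intermediate chain to which light chains bind, stood at 74.6 ± 7.67 FPKM in Cd28 KO and 75.1 ± 8.19 FPKM in WT, a log2 difference of -0.01 ± 0.12 (SE). Dync1h1, the heavy chain with the motor domain, stood at 23.5 ± 5.76 against 26.9 ± 1.15 FPKM, and Dync1li1, a light intermediate chain that links cargo adaptors, at 22.5 ± 1.03 against 22.4 ± 5.21 FPKM (SD, n = 3 each). The 7 tested chains included Dync2li1, Wdr34 and Wdr60, which belong to the ciliary dynein. Of the 7, 2 differed upwards, Dync1li1 and Wdr34, and 5 downwards, and their median log2 difference was -0.04.

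Among the Tctex-type and roadblock genes examined outside the set, Tctex1d2, a Tctex-type light chain of the ciliary dynein, was the 1 that passed the filter. It stood at 22.8 ± 4.36 FPKM in Cd28 KO and 20.2 ± 0.998 FPKM in WT, a log2 difference of 0.15 ± 0.15 (SE). Tcte3, a Tctex-type gene elsewhere on chromosome 17, was below the filter and was picked out after its values were seen. It was listed at 0.62, 0.97 and 0.75 FPKM in Cd28 KO and at 0.18, 0.17 and 0.05 FPKM in WT. These groups did not overlap, at levels whose read support is unknown. Dynlrb2, the second roadblock gene, was listed in 2 WT libraries at 0.23 FPKM and in no other library.

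Dynactin, the complex that lets dynein move over long distances, had 12 tested genes, of which 8 were positive and 4 negative, with a median log2 of 0.04. Its most abundant genes encode the capping proteins, which also cap actin filaments. Capzb stood at 298 ± 23.1 against 277 ± 5.38 FPKM, Capza2 at 169.6 ± 12.4 against 166 ± 6.24 FPKM and Capza1 at 91.7 ± 6.97 against 89.0 ± 17.9 FPKM, Cd28 KO first (SD, n = 3 each). All 3 overlapped between the groups.

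Regulators of the motor had 7 tested genes, with a median log2 of -0.05. Nudc, a chaperone-like partner of the Lis1 pathway, stood at 62.4 ± 8.57 against 65.3 ± 5.26 FPKM. Ndel1, which brings Lis1 to dynein, stood at 35.1 ± 8.55 against 31.0 ± 11.8 FPKM, and Clip1, a protein of growing microtubule ends, at 31.0 ± 2.90 against 32.0 ± 3.48 FPKM. Ndel1 was highest in replicate 3 of both groups, at 44.9 and 44.6 FPKM.

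Cargo adaptors had 12 tested genes, with 6 in each direction and a median log2 of -0.02. Trak1, which links mitochondria to motors, stood at 18.9 ± 3.05 against 20.9 ± 3.53 FPKM. Bicd2, which links Rab6 vesicles, stood at 16.8 ± 4.28 against 17.4 ± 3.40 FPKM, and Ccdc88b, of the Hook-related family, at 15.7 ± 3.46 against 15.9 ± 0.364 FPKM (SD, n = 3 each).

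Known partners of the light chains outside the motor had 7 tested genes and a median log2 of -0.10. Arhgef2, a microtubule-bound activator of RhoA that Dynlt1 binds, stood at 41.8 ± 13.1 FPKM in Cd28 KO and 39.9 ± 8.05 FPKM in WT. Pak1, a kinase that binds Dynll1, stood at 27.1, 28.5 and 28.2 FPKM against 31.7, 32.0 and 30.2 FPKM, lower without overlap, with a log2 difference of -0.16 ± 0.10 (SE) and a limma adjusted p of 0.9995. Bcl2l11, the cell death protein Bim, which LC8 holds on microtubules, stood at 26.8 ± 12.1 against 30.6 ± 16.2 FPKM, with the highest values in replicate 3 of both groups.

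Kinesins, which mostly move cargo outward, had 14 tested genes, of which 3 were positive and 11 negative, with a median log2 of -0.14. Kif1c, a kinesin of macrophage podosomes, stood at 28.5, 30.6 and 25.9 FPKM in Cd28 KO and 32.2, 34.7 and 36.7 FPKM in WT. It was lower in every Cd28 KO library, with a log2 difference of -0.28 ± 0.11 (SE) that did not pass over all genes (limma adjusted p = 0.9995). The kinesin light chains Klc4 and Klc1 stood at 34.2 ± 0.618 against 32.1 ± 1.90 FPKM and at 27.3 ± 9.20 against 27.9 ± 7.10 FPKM. Klc1 was lowest in replicate 3 of both groups, at 16.9 and 19.8 FPKM.

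Axonemal dyneins, the motors of beating cilia, were near absent. Of 20 genes, 12 were listed in any library and 1, the light chain Dnal4, passed the filter, at 11.5 ± 0.781 FPKM in Cd28 KO and 12.5 ± 0.320 FPKM in WT (SD, n = 3 each). The heavy chain genes stayed at or below 1.21 FPKM, the highest value of Dnah11.

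The neighbours of the Dynlt1 copies were then examined, since near-identical copies share a duplicated stretch of the chromosome. Limma called 0 of 14 tested genes within 1 Mb, in the fits without and with the replicate block. With so few calls over all genes, 0 is the likely count for any 14 genes. Without adjustment, 2 of the 14 had a p below 0.05, and 5 did with the block, where 2.49% and 7.89% of all tested genes did. The window, chromosome 17 from 5306344 to 7655965, holds 60 other RefSeq genes, of which 20 were listed. The median log2 difference of the 14 was -0.05, with 5 positive and 9 negative. Groups did not overlap for 2 that were higher and 1 that was lower, where 3.84% and 2.87% of all tested genes were.

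Among the 6 most abundant neighbours, 2 were higher in every Cd28 KO library. Rnaset2b, a ribonuclease of lysosomes, stood at 55.7, 66.2 and 63.6 FPKM in Cd28 KO and 53.3, 48.9 and 46.6 FPKM in WT, a log2 difference of 0.31 ± 0.11 (SE). Tmem242, a mitochondrial membrane protein, stood at 43.9, 44.9 and 47.8 against 37.2, 31.0 and 36.9 FPKM, a log2 difference of 0.37 ± 0.11 (SE). Neither passed over all genes, at a limma adjusted p of 0.9995 each without the block and of 0.50 and 0.32 with it. Snx9 at 36.0 ± 0.491 against 37.9 ± 10.5 FPKM, Gtf2h5 at 30.2 ± 3.36 against 28.0 ± 0.782 FPKM, Ezr at 21.7 ± 13.7 against 24.1 ± 16.5 FPKM and Zdhhc14 at 21.1 ± 0.851 against 21.5 ± 0.416 FPKM all overlapped.

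The nearest tested gene on either side of the copies had a smaller difference than Dynlt1b and Dynlt1c. Those copies stood out in the earlier results known when the set was drawn up, so this is a description only. Both neighbours overlapped between the groups. Tmem181a, whose annotation overlaps that of Dynlt1a, stood at 21.2, 19.2 and 15.2 FPKM in Cd28 KO and at 17.4, 16.7 and 12.7 FPKM in WT. The log2 difference was 0.23 ± 0.17 (SE). Ezr, the nearest tested gene past Dynlt1f, had a log2 difference of -0.12 ± 0.52 (SE). Farther out, and picked after its values were seen, Rsph3b was lower in every Cd28 KO library, at 10.4 ± 1.78 against 13.0 ± 0.684 FPKM (limma adjusted p = 0.9995). Tmem181a, Rsph3b and Rnaset2b have near copies of their own on the chromosome, so their values are uncertain too. The 11 other RefSeq genes that lie wholly between the outermost Dynlt1 copies were not listed in any library.

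**Figure D5:**
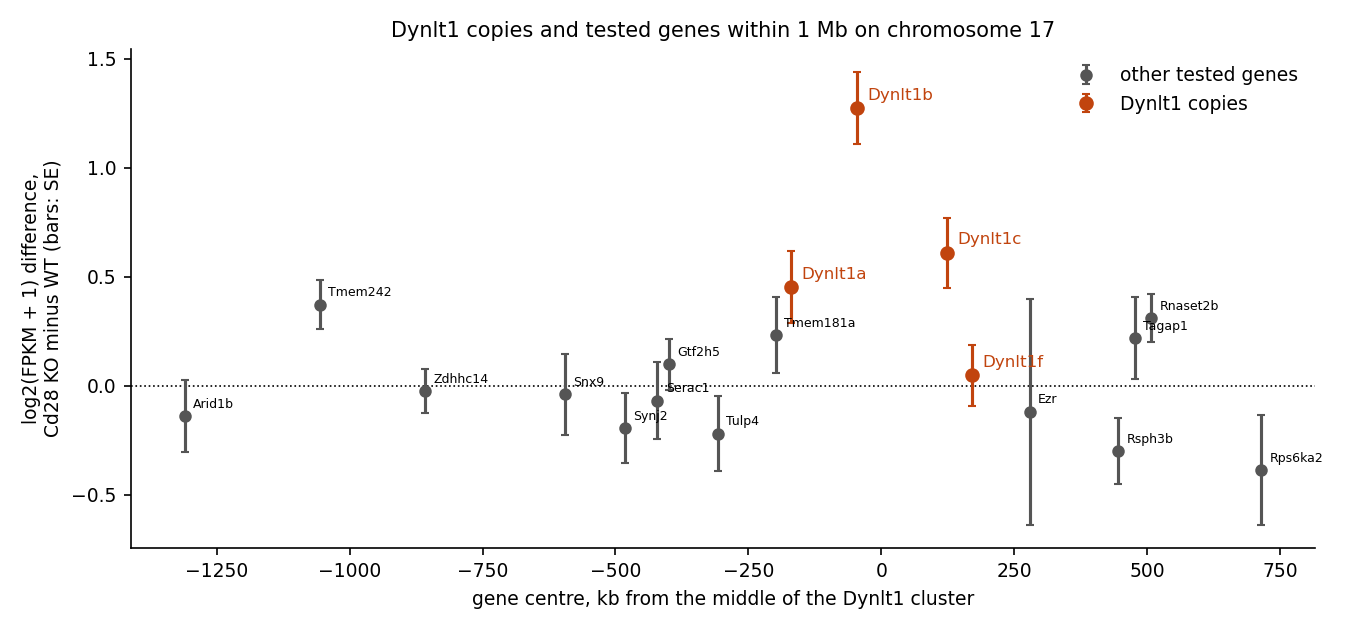
Log2(FPKM + 1) difference, Cd28 KO minus WT, with SE bars, against the distance of each gene's centre from the middle of the Dynlt1 cluster, for the 4 copies (orange) and the 14 other tested genes within 1 Mb (grey). Dynlt1b at 1.27 and Dynlt1c at 0.61 lie above every neighbour, whose differences run from -0.39 to 0.37. Those copies stood out in the earlier results known when the set was drawn up.

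Across the 6 libraries, Dynlt1b and Dynlt1c varied together, with a Pearson r of 0.948 on log2(FPKM + 1), while Dynlt1b and Dynlt1f gave 0.376. Dynll1 and Dynlrb1 gave 0.816. These are descriptions over 6 libraries that share genotype, replicate number and scaling. The genes most like the Dynlt1 sum were Oas1a (r = 0.995), Auh (0.982), Epsti1 (0.980), Laptm4a (0.976) and Ndufaf7 (0.972). Oas1a, an antiviral oligoadenylate synthetase with close paralogs, stood at 130.1, 121 and 132 FPKM in Cd28 KO and at 105, 98.6 and 107 FPKM in WT. Of 10164 genes, 108 (1.06%) had an r above 0.9 with the sum. Those most like Dynll1 were Timm13 (0.992), Pebp1 (0.990) and Nop10 (0.989), each lowest in WT replicate 3.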

How the data were processed

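The authors deposited FPKM for each gene in each library, made with Bowtie and RSEM on GRCm38, per the submitters' processing notes. Tool versions were not given in the sources used here. All files listed genes above 0 only, with 0.01 as the lowest value, and an absent gene was counted as 0. Of 14574 Entrez numbers, 14551 matched RefSeq for GRCm38.p6.

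The 10172 genes whose mean reached 1 FPKM were tested on log2(FPKM + 1) with limma 3.58.1 in R 4.3.3 (empirical Bayes with trend, no block), two-sided, with Benjamini-Hochberg adjustment over all of them and a threshold of 0.05. Such log2 differences understate changes of low genes. The SE is that of the limma fit. The Dynlt1 sum was fitted in place of its 4 copies. FPKM carries no read number, so precision rests on the replicate spread. The fit was tried on simulated data with independent noise and no replicate effect. The libraries here do show such an effect, so the simulation does not show how the fit handles it.

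Deviations from group means correlated at 0.752, 0.505 and 0.783 between libraries numbered 1, 2 and 3. With every value over 0.1, libraries of 1 number were treated as pairs, on the data alone and by no label. Cd28 KO 1 with WT 2 gave 0.663 and Cd28 KO 2 with WT 1 gave 0.535, so the values set replicate 3 apart and do not tell the pairing of 1 and 2 from the crossed one. Counts with the replicate block stand beside those without it.

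The members and lists were chosen with earlier results of these data known. Named are the 8 members, called genes of each list or else its 3 most abundant, called neighbours or else the 6 most abundant, and the genes of highest r. Others are said to be picked after seeing values. Transcripts came from GENCODE M21 and were aligned with Biopython 1.88. Tables and plots were made in Python 3.11.15 with NumPy 2.4.6, pandas 2.3.3 and Matplotlib 3.10.9.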

Additional observations from a re-analysis of the deposited data

How the results depend on the processing

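Over 12 alternatives the log2 difference of the Dynlt1 sum stayed between 0.65 and 0.86, that of Dynlt1b between 1.13 and 1.39, Dynlt1c between 0.49 and 0.75 and Dynlt1a between 0.36 and 0.58. The lowest value of the sum came without Cd28 KO replicate 3 and the highest without Cd28 KO replicate 2. The differences of the other members lay near 0 and changed sign in 3 alternatives for Dynlt1f (-0.06 to 0.12), 6 for Dynlt3 (-0.05 to 0.11), 3 for Dynll1 (-0.18 to 0.09), 2 for Dynll2 (-0.28 to 0.05) and 4 for Dynlrb1 (-0.10 to 0.15). Each moved by less than 1 SD between replicates. Limma called 0 of the dynein transport genes and 0 of the neighbours in all 14 alternatives. Over all genes it called 2, against 18 with the replicate block, 5 with no filter on low values and 96 without replicate 3 of both groups, and 2 to 3 when a single library was left out. The replicate block changed no call among the dynein transport genes and neighbours. Most alternatives called so few genes over all that 0 was the likely count for lists of this size, so its repetition adds little. The number of reads behind a value, and with it the precision of the low genes, is unknown.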
